A study of Mus musculus and Mus musculus
Oryx dammah with 30 samples.

Results

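In nuclear transfer (NT) embryos made with cells of the antelope Oryx dammah, 136 of the 28559 oryx genes listed had no read in any of the 3 libraries with α-amanitin and at least 5 normalized counts in each of the 3 libraries without it. These genes, 0.476% of those listed, are called silent genes here. They were chosen on these measured values, so the contrast between the groups is given for them as a description and was not tested. A normalized count is the number of reads on a gene divided by a factor that sets the libraries to a common depth. Levels are therefore relative, and a fall of all oryx RNA together would not show in them.

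The recipients were BDF1 mouse embryos (C57BL/6 and DBA/2 strains) at the four-cell stage, held before division with 0.1 μg/mL demecolcine, a drug that prevents spindle formation. A pair of primary cells, grown from the muscle of 1 post-mortem female animal, was fused to each embryo at 46 hours post insemination (hpi). The NT embryos were then cultured for 24 h, to 70 hpi, with demecolcine in both groups and with or without α-amanitin. Each library was made from a pool of 5 embryos, and the 6 libraries analysed are among 30 samples of the series. Libraries without α-amanitin are called NT1, NT2 and NT3, and those with it Am1, Am2 and Am3, as the columns of the table are named. The study describes the libraries of a group as biological replicates, but the labels do not say whether separate cultures of donor cells were used, and all donor cells came from the same animal.

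α-Amanitin is a peptide toxin of mushrooms that binds RNA polymerase II, the enzyme that makes messenger RNA, and stops transcription. A transcript that a donor cell brings into the embryo can still be present after treatment until it decays. In embryos the toxin is widely used to separate newly made transcripts from those already present. Reads were assigned to the oryx after those that mapped to the mouse genome had been taken away, so conserved stretches of a gene can be missing from its count. Reads of the mouse embryo that failed to map to the mouse genome could in turn be counted on oryx genes. No library analysed lacked donor cells, so this was not tested.

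The oryx genes received 338127 to 534401 reads per library without α-amanitin and 276921 to 484943 with it. A read was found for 10298 to 11041 genes without α-amanitin and for 6838 to 8686 with it, and the shallowest library, Am3, had the fewest. A single read was worth 0.692, 0.911 and 1.09 normalized counts in NT1, NT2 and NT3, and 0.795, 0.988 and 1.49 in Am1, Am2 and Am3. The minimum of 5 was therefore reached with 8, 6 and 5 reads in NT1, NT2 and NT3. A count of 0 allows up to 3 reads, equal to 2.39, 2.96 and 4.48 normalized counts in Am1, Am2 and Am3. Such limits cover counting error only. Neither the files nor the reference tables pair the identifiers with names, and 0 of 28559 matched. The study linked oryx genes to human or bovine genes through a genome annotation, which was not used here. No function, marker of the donor cells or sequence can therefore be given, and the muscle origin of the cells was not checked against markers. Silent genes are referred to by their rank of mean level without α-amanitin, and an identifier is given only for the first and the last.

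The question behind the comparison was whether oryx genes are transcribed in the mouse embryos after NT. Silent genes took a small share of the reads on oryx genes in untreated embryos. Their reads numbered 4071 in NT1, 4420 in NT2 and 2846 in NT3, equal to 0.762%, 1.12% and 0.842% of the reads on oryx genes. The mean was 0.909% ± 0.189 (SD, n = 3). On the normalized scale their levels summed to 2817, 4028 and 3091, a mean of 3312 ± 635 (SD, n = 3). NT2 gave the highest value on either scale although NT1 was the deepest library. Both scales are relative to the oryx reads of the same library. The number of donor cells that fused or survived and the RNA per donor cell can therefore not be read from these values.

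The level of 1 silent gene stood above those of all others. Oryx_dammah_006457, ranked first, had 240.1 normalized counts in NT1, 262 in NT2 and 162 in NT3, and 0 in Am1, Am2 and Am3. These values came from 347, 288 and 149 reads, and their mean was 221 ± 52.9 (SD, n = 3). Against 3 reads in each treated library, a mean of 3.28 normalized counts, its level without the toxin was at least 67.6-fold higher. All 3 untreated pools held the gene at a high level, and the highest pool was 1.62 times the lowest.

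The genes ranked 2 to 4 formed a group with the first, with all 4 at a mean of at least 100. The gene ranked 2 had 123, 184 and 140.1 normalized counts in NT1, NT2 and NT3 (149 ± 31.4, SD, n = 3). That ranked 3 had 120.4, 175 and 98.8 (131 ± 39.2), and that ranked 4 had 134, 178 and 82.5 (131 ± 47.6). Each of the 3 was highest in NT2, as was the first gene. Together the 4 genes held 19.1% of the summed level of the silent genes, and the first 10 held 30.7%.

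For the genes ranked 5 to 10, single pools departed further from one another. The gene ranked 5 had 41.5, 189.6 and 39.1 normalized counts, so that its mean of 90.1 rested largely on NT2. That ranked 8, with 13.8, 104 and 40.2, and that ranked 9, with 29.1, 94.8 and 31.5, were also highest in NT2. The gene ranked 10 had 22.1, 10.9 and 116, and was high in NT3 alone. In contrast that ranked 6, with 101, 96.6 and 28.2, was about as high in NT1 as in NT2 and low in NT3. That ranked 12 had 73.4, 49.2 and 7.60 and was also lowest in NT3. All 6 genes ranked 5 to 10 varied more than 3-fold between pools, as did 11 of the first 20.

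Other silent genes varied little between pools. The gene ranked 16 had 41.5, 41.0 and 41.3 normalized counts, with a coefficient of variation (SD divided by the mean) of 0.621%, the lowest of the silent genes. It rested on 60, 45 and 38 reads, for which counting error alone is larger, so so small a spread cannot be resolved. That ranked 13 had 36.7, 50.1 and 42.4, a range of 1.37-fold. In all, 30 silent genes (22.1%) differed less than 1.5-fold between their highest and lowest pool, against 34.3% of the other genes with at least 5 normalized counts in every untreated library.

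**Figure D1:**
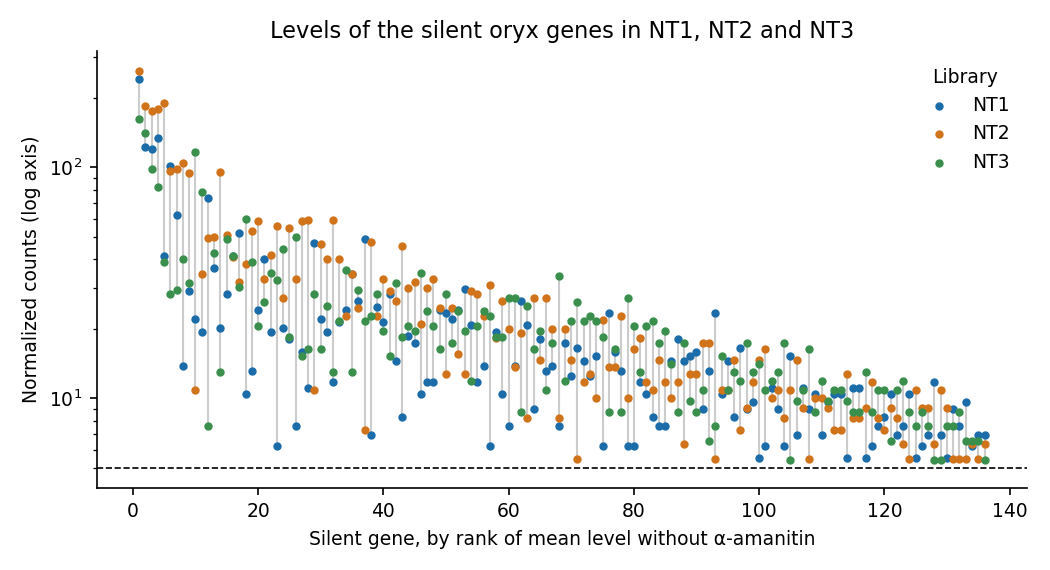
Normalized counts (log axis) of each of the 136 silent genes in NT1, NT2 and NT3, ordered by mean level, with a grey line from the lowest to the highest library and a dashed line at the minimum of 5. The first 4 genes lie between 82.5 and 262 in every library, and from rank 5 to rank 10 each gene spans more than 3-fold. All 136 were at 0 in Am1, Am2 and Am3, which are not drawn.

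Most silent genes were weakly expressed. Their mean level without α-amanitin had a median of 16.5 normalized counts, with quartiles of 11.0 and 27.5. Only 9 reached a mean of 50, whereas 79 lay under 20 and 28 under 10. The other 4518 genes with at least 5 normalized counts in every untreated library had a median of 31.6. The lowest mean among the silent genes was that of Oryx_dammah_022963, with 6.92, 6.38 and 5.43 in NT1, NT2 and NT3 and a mean of 6.24. Over the silent genes the median was 13.1 in NT1, 14.6 in NT2 and 17.4 in NT3, and so was lowest in the deepest library.

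A silent gene rested on 22 to 784 reads over the 3 untreated libraries, with a median of 57.5. Counted against 3 reads in each treated library, the lower bound of the fold was 5.02 at the median, with quartiles of 3.36 and 8.38. It was at least 10-fold for 21 genes, at least 4-fold for 84 and under 2-fold for 3. At these depths a gene with a low level without α-amanitin cannot be said to be absent with it.

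The rule has edges on both sides. Inside the minimum of 5, the lowest untreated library lay under 6 for 17 silent genes, down to 5.43. Just outside it were 34 genes at 0 in all treated libraries with 2 untreated libraries at 5 or more and the remaining one between 4.15 and 4.84. Their mean levels had a median of 8.23. On the other side, 53 genes with at least 5 in every untreated library missed the rule by 1 read over all treated libraries, and 49 by 2 reads. The 53 genes had a median mean level of 16.4, close to the 16.5 of the silent genes, and the highest of them reached 51.7. Their only read fell in Am1 for 20, Am2 for 23 and Am3 for 10, the library with the fewest reads.

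Zeros with α-amanitin were not limited to the silent genes. Of the 4654 genes with at least 5 normalized counts in every untreated library, 3646 (78.3%) had reads in all treated libraries. A value of 0 was found in 1 treated library for 599 (12.9%), in 2 for 273 (5.87%) and in all 3 for the 136 silent genes (2.92%). Where 2 treated libraries were at 0, the remaining one was Am1 for 121 genes, Am2 for 122 and Am3 for 30.

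The same rule turned round found far fewer genes. Of 3396 genes with at least 5 normalized counts in every treated library, 3317 (97.7%) had reads in all untreated libraries. A value of 0 was found in 1 untreated library for 66 (1.94%), in 2 for 10 (0.294%) and in all 3 for 3 (0.0883%). The 3 genes had means of 35.6, 28.6 and 18.3 with α-amanitin. The first of them had 42.9, 35.6 and 28.4 in Am1, Am2 and Am3, the second 27.8, 41.5 and 16.4, and the last 19.1, 20.7 and 14.9. The first and the second carry consecutive identifiers. The median number of reads per library was 404077 with and 393872 without α-amanitin, but fewer genes had a read in each treated library, and the part of depth in these shares was not tested.

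**Figure D2:**
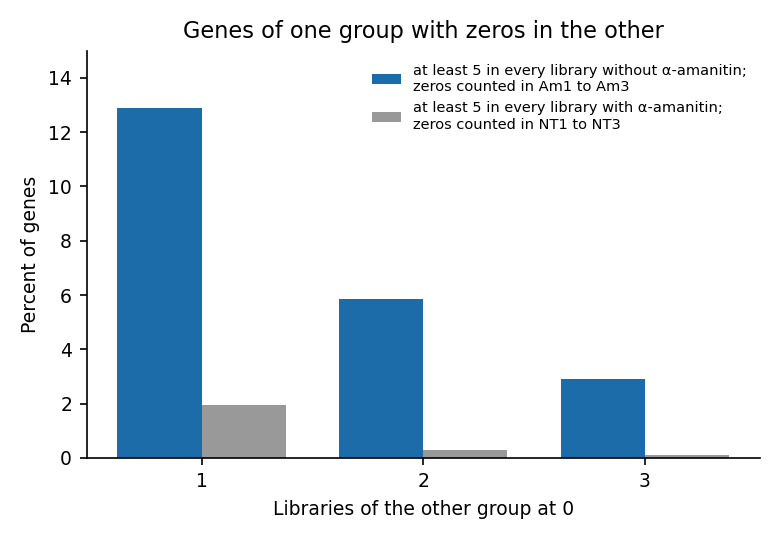
Percent of genes with at least 5 normalized counts in every library of one group that were at 0 in 1, 2 or 3 libraries of the other group. Blue bars are the 4654 genes of the untreated group, with 12.9%, 5.87% and 2.92%, and grey bars the 3396 genes of the treated group, with 1.94%, 0.294% and 0.0883%.

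Silent genes were a larger share of weak genes than of strong ones. They made up 7.65% of the genes with a mean of 5 to under 10 (28 genes, beside 338 others), 4.31% of those from 10 to under 20 (51 beside 1131) and 3.12% of those from 20 to under 50 (48 beside 1490). Among genes from 50 to under 100 the share was 0.644% (5 beside 771), and at 100 or more it was 0.505% (4 beside 788). How far the low counts of weak genes enter these shares was not tested.

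Between untreated pools, silent genes spread more widely than the other genes with at least 5 normalized counts. The coefficient of variation had a median of 36.9% over silent genes, with quartiles of 22.7% and 52.3%, against 27.8%, 16.7% and 41.4% over the 4518 others. More than 2-fold between the highest and lowest pool was found for 69 silent genes (50.7%) and for 35.7% of the others. More than 3-fold was found for 33 (24.3%) and for 10.9%. The genes of a library are not independent, and these shares are given without a test.

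The wider spread was seen at higher levels and not at the lowest. At a mean of 5 to under 10 the median coefficient of variation was 22.7% for silent genes and 27.3% for others, and 9 of 28 silent genes lay above the median of the others. From 10 to under 20 the medians were 39.0% and 37.8%, with 28 of 51 above. From 20 to under 50 they were 41.6% and 32.0%, with 34 of 48 above. The 9 genes with a mean of at least 50 were all above, with a median of 72.0% against 24.4% for the 5 under 100 and of 26.9% against 16.6% for the 4 at 100 or more.

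**Figure D3:**
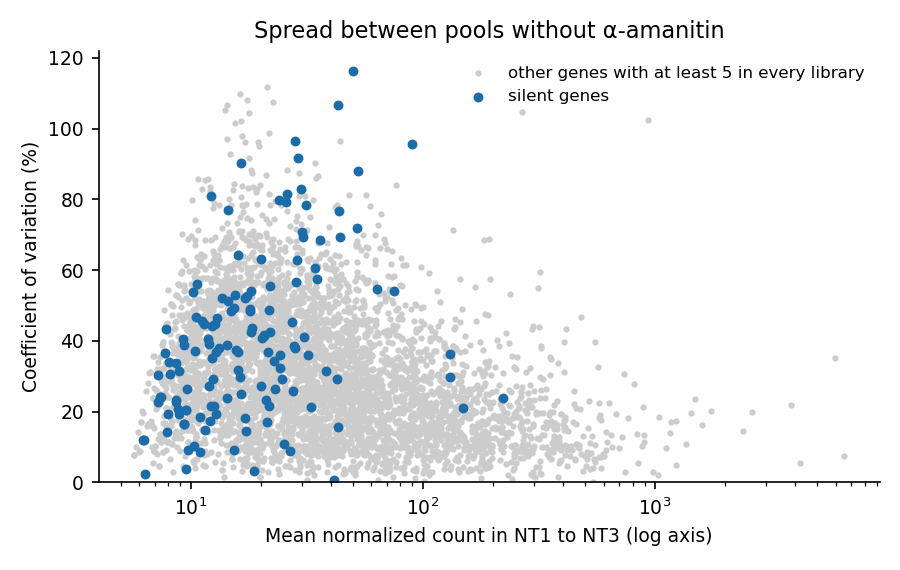
Coefficient of variation between NT1, NT2 and NT3 (%) against mean normalized count (log axis) for the 136 silent genes (blue) and the 4518 other genes with at least 5 in every untreated library (grey). The 9 silent genes with a mean of at least 50 all lie above the median of the grey genes of their level, as do 9 of the 28 with a mean under 10.

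The pools did not contribute evenly. NT2 was the highest library for 57 silent genes (41.9%, against 32.2% of the other genes), NT3 for 48 (35.3% against 35.5%) and NT1 for 31 (22.8% against 32.3%). NT1 was the lowest for 64 (47.1% against 34.1%), NT2 for 37 (27.2% against 36.8%) and NT3 for 35 (25.7% against 29.0%). For 20 silent genes (14.7%, against 7.37% of the others) a single library was more than 2-fold above both of the remaining ones. This library was NT2 for 13 genes (9.56% of silent genes, against 2.59% of the others), NT3 for 5 (3.68% against 2.50%) and NT1 for 2 (1.47% against 2.28%).

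The order of the silent genes was only partly shared between pools. Across the 136 genes, Pearson's r of the log2 normalized counts was 0.61 between NT1 and NT2, 0.54 between NT1 and NT3 and 0.63 between NT2 and NT3, and Spearman's rho was 0.49, 0.44 and 0.58. Over the 4518 other genes, which span a wider range of levels, r was 0.88 to 0.89. These are correlations across genes within libraries, and genes are not independent replicates.

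The rule was also applied with the NT and Am libraries that share a number left out, as a description and not a test. It had been set with earlier results of all libraries known. The 136 silent genes are by definition among the chosen genes each time, and only they met both parts of the rule in the libraries left out. The rule applied to NT2, NT3, Am2 and Am3 chose 400 genes, of which 235 (58.8%) were also at 0 in Am1 and 346 (86.5%) were higher in NT1 than in Am1. Without NT2 and Am2 it chose 311 genes, of which 166 (53.4%) were at 0 in Am2 and 268 (86.2%) were higher in NT2. Without NT3 and Am3 it chose 212 genes, of which 168 (79.2%) were at 0 in Am3 and 197 (92.9%) were higher in NT3. The median of the chosen genes in the library left out was 7.61, 12.8 and 11.9 normalized counts in NT1, NT2 and NT3 and 0 in Am1, Am2 and Am3.

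The minimum of 5 was reached in the untreated library left out by 64.2% of the chosen genes for NT1, 83.0% for NT2 and 78.3% for NT3.

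Of the genes with at least 5 normalized counts in the same untreated libraries that were not chosen, 92.3%, 92.5% and 92.7% reached the minimum in the untreated library left out, a larger share than of the chosen genes. Of these genes 6.69% were at 0 in Am1, 6.14% in Am2 and 16.4% in Am3, a smaller share than of the chosen genes. The shares that were higher in the untreated library left out were 58.4% for NT1, 57.1% for NT2 and 61.0% for NT3. Their levels were also higher, with medians of 27.7, 29.2 and 29.3 in NT1, NT2 and NT3, so the shares at 0 do not compare genes of like level. Of the chosen genes, 16 had no read in NT1 when it was left out, 12 had none in NT2 and 4 had none in NT3. The rule turned round chose only 14, 18 and 17 genes, of which 9, 11 and 11 were higher in the treated library left out.

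**Figure D4:**
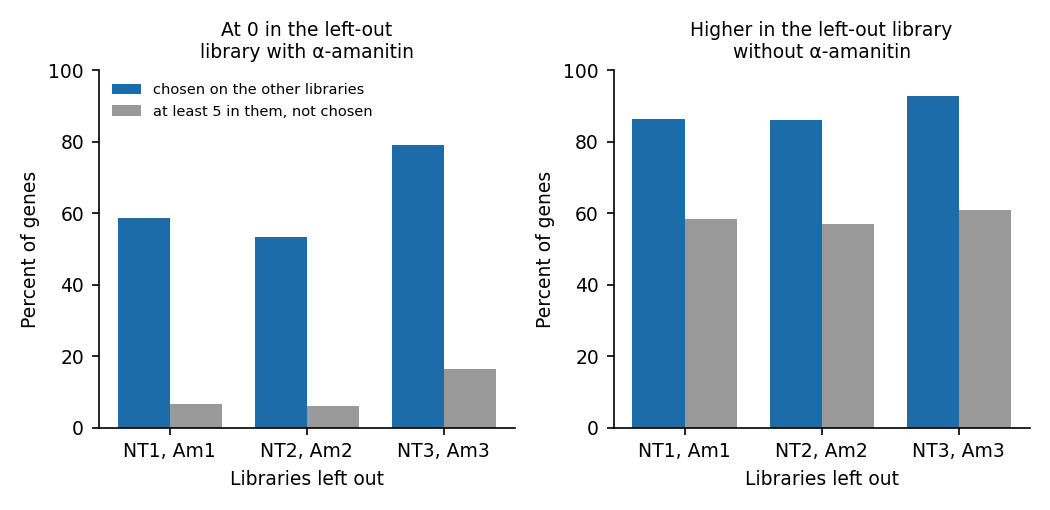
Percent of genes at 0 in the treated library left out (left) and higher in the untreated library left out (right), for genes chosen by the rule in the remaining 4 libraries (blue) and for genes with at least 5 normalized counts in the same untreated libraries that were not chosen (grey). At 0 were 58.8%, 53.4% and 79.2% of the chosen genes against 6.69%, 6.14% and 16.4%.

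In the comparison over all oryx genes, edgeR's quasi-likelihood test was applied to 4582 genes that passed a filter on low counts. By the criteria of a 4-fold change or more and an adjusted p below 0.05, 454 genes (9.91%) were higher without α-amanitin and 151 were lower. The libraries were scaled within the oryx reads. If oryx RNA fell as a whole, a transcript that was only retained would appear higher with α-amanitin, which was not tested. Over the alternatives, the share called higher ran from 3.92% without NT2 to 12.4% with limma. It was 4.40% without NT3, 5.91% with a block for the library number, 5.27% without the filter and 12.3% without Am1. The number called lower was 67 without NT2, 81 without NT3, 95 with the block and 215 without the filter. Of the 136 silent genes, 72 passed the filter and 64 did not. They could pass only through the untreated libraries, all 72 met both criteria, and since they were chosen on this contrast nothing is read from that count beside the 9.91%. Every untreated library was above every treated library for 28.5% of the tested genes, and for silent genes the rule itself fixes this. The 72 genes had means of 9.53 to 221 normalized counts, with a median of 24.2.

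Silent genes were found all along the order of identifiers, unevenly and without long runs. The identifiers run from 1 to 28559 without a gap, and whether their order follows position in the genome is not stated. The distance from a silent gene to the next was 124 identifiers at the median and 1217 at most. It was 1 in 2 cases, 2 in 1 case, 3 to 5 in 0 cases and 6 to 10 in 5 cases. The longest run of consecutive identifiers was 2 genes. A silent neighbour was found for 4 of 136 silent genes (2.94%), which are 2 pairs, and for 62 of the 4518 other genes (1.37%).

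The first pair with consecutive identifiers joined the gene ranked 4 with that ranked 89. The latter had 15.2, 12.8 and 9.77 normalized counts in NT1, NT2 and NT3. The first of the pair was 8.82, 13.9 and 8.44 times the second, and both were lowest in NT3.

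The second pair joined the genes ranked 7 and 6. The former had 62.3, 98.4 and 29.3 normalized counts, and its ratio to the latter was 0.617, 1.02 and 1.04. In this pair the 2 genes were at similar levels in NT2 and NT3, and both were lowest in NT3. The identifier after them was not silent, with 27.0, 51.0 and 42.4 in NT1, NT2 and NT3 and 24.6, 19.8 and 8.97 in Am1, Am2 and Am3. Whether either pair is a single transcript divided between 2 gene models was not tested.

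Another pair lay 2 identifiers apart and joined the genes ranked 50 and 102. They had 23.5, 12.8 and 28.2 and 11.1, 10 and 11.9 normalized counts. The gene between them and the gene on either side of them also had 0 in all treated libraries, but each was under 5 in at least 1 untreated library. Of the 28559 listed genes, 17522 were at 0 in every treated library, but 13575 of these had no read in any library. The other 3947 had a read without α-amanitin, as these neighbours did.

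Each of the 28 full blocks of 1000 identifiers held at least 1 silent gene, with a median of 4. The most, 11, lay from 24001 to 25000, where they were 6.92% of the 159 genes with at least 5 normalized counts in every untreated library. The lowest such share was 0.562%. The 3 adjacent blocks from 6001 to 9000 held 9 silent genes each, and both pairs with consecutive identifiers lie there. These 27 genes were 19.9% of the silent genes and 5.18% of the 521 genes of that stretch with at least 5, against 2.92% overall. The stretch was picked out after its values were seen and was not tested. In the last full block it was 22.2%, but that block held only 9 such genes, of which 2 were silent. The 559 identifiers after it held 5 such genes and 0 silent ones.

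**Figure D5:**
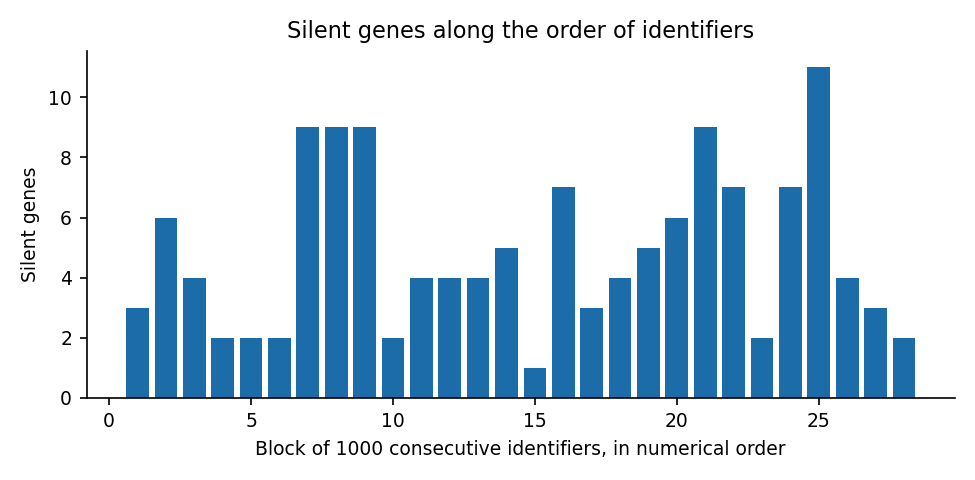
Number of silent genes in each full block of 1000 consecutive identifiers, in numerical order. The count runs from 1 to 11, with no empty block, and is 9 in each of the 3 adjacent blocks from 6001 to 9000.

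Of 267 genes listed next to a silent gene and not silent themselves, 62 (23.2%) had at least 5 normalized counts in every untreated library and 79 (29.6%) had no read in any library. Over 7981 neighbours of the other genes these shares were 27.2% and 29.2%, and over all listed genes that were not silent they were 15.9% and 47.8%. Of the 62 neighbours, 17 (27.4%) had a value of 0 in a treated library, against 17.5% of such genes next to other genes. Their mean with α-amanitin divided by that without it was 0.665 at the median, against 0.742. These differences were not tested.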

How the data were processed

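RNA-seq libraries had been prepared from pooled four-cell NT embryos with SMART-seq v4 and Nextera XT. Per the labels and methods, the authors trimmed reads with Trimmomatic, Trim Galore and Cutadapt, aligned them to mm10 with STAR, and aligned the remaining reads to the Oryx dammah genome, with counting per gene by STAR. The signal that the authors deposited for each gene and library is a read count divided by a DESeq2 size factor (0.669 to 1.44). The table also holds the authors' mean levels, log2 changes with standard errors, Wald statistics and p-values, which were not used. A further 28 columns of single libraries in 3 mouse tables were left out. The strand setting and tool versions are not given in the sources used here.

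The smallest value above 0 in a library was taken as 1 read, and 100% of values were whole multiples within 1e-06. Reads were tested with edgeR 4.0.16 in R 4.3.3 (quasi-likelihood test, TMM, filterByExpr, Benjamini-Hochberg adjustment), a procedure checked on simulated data. Other steps used pandas 2.3.3, numpy 2.4.6 and scipy 1.17.1. DESeq2 1.42.0, limma 3.58.1, other minima, TMM scaling and leaving out each library were alternatives. The silent genes, the rule for them and all comparisons were chosen with earlier results of these data known. As identifiers could not be paired with names, the rule for named genes gives the silent genes with the highest and lowest mean, and ranks for the rest. Lists of marker genes prepared for the donor cells could not be used. Columns NT1 to NT3 were matched to the untreated oryx group and not to single samples, since samples of another experiment have these names. P-values measure the spread between these pools.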

Additional observations from a re-analysis of the deposited data

How the results depend on the processing

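Of 46 alternative values, 30 lay within 1.5 times of the reported value, 11 were higher than that and 5 lower. The number of silent genes, 136, was 501 with a minimum of 1 normalized count, 68 with 10 and 19 with 20. It was 181 with the minimum set on reads, 204 with up to 1 read in each treated library, and with TMM scaling the same 136 genes were found. With each library left out it was 166 to 258, with 235 without NT1, 257 without Am1 and 258 without Am2. Leaving out a library makes the rule easier to meet. The share of silent genes with a silent neighbour, 2.94%, was 10.8% with the minimum of 1. The median coefficient of variation, 36.9%, was 29.0% to 31.4% over pairs of untreated libraries. Genes called in either direction, 605 with edgeR, were 1004 without a filter on low counts, 883 with DESeq2 and 690 with limma, and 265 to 798 with each library left out (265 without NT2, 306 without NT3). The replicate block gave 366 genes, of which 51 were silent. Deviations from the group mean correlated at -0.05 to -0.03 for same-numbered libraries and at 0.01 to 0.03 for the other pairs. With 3 libraries per group, such values cannot show whether same-numbered pools were handled together. The silent genes called, 72, ranged from 51 to 136, the latter without the filter. The median log2 change of tested genes was 0.10 with TMM and 0.21 with the deposited size factors. Depth limits the fold of weak genes, and Am3 most of all.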
